A study of Homo sapiens with 12 samples.

Results

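The mitochondrially encoded genes are the 37 genes that the deposited expression table places on chromosome MT, of 34626 genes in all. They comprise 13 mRNAs, 2 ribosomal RNAs and 22 transfer RNAs, and the 37 symbols that begin with MT- are the same 37 genes. They were measured by RNA sequencing in 12 libraries from 2 human acute myeloid leukaemia cell lines, MV4-11 and THP-1, both of which carry a rearrangement of KMT2A. Each line had 3 libraries labelled shControl and 3 labelled shCYTH4, and the study asked what a short hairpin RNA against CYTH4, an exchange factor for ARF GTPases of the cytohesin family, does to gene expression. Each group is defined in the labels by its line and hairpin alone, with no hairpin sequence, clone, drug or collection time. The labels do not say whether the replicates came from separate cultures, so p-values measure the spread between these libraries, which may be technical. RNA was selected by its poly(A) tail before the libraries were made, and this holds for all 4 groups. The libraries are bulk samples, so fewer mitochondrial genomes per cell and less RNA from each genome cannot be told apart.

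The human mitochondrial genome is a small circle that is transcribed from both strands into long precursors covering many genes. Transfer RNAs sit between most of the mRNAs and rRNAs. The precursor is released mostly into single RNAs by cutting at the tRNA ends, a scheme known as tRNA punctuation. Most of the mRNAs then receive short poly(A) tails, which in some of them complete the stop codon. The MT-ND genes encode subunits of complex I (NADH dehydrogenase), MT-CYB encodes cytochrome b of complex III, the MT-CO genes encode the catalytic core of complex IV (cytochrome c oxidase), and MT-ATP6 and MT-ATP8 encode subunits of ATP synthase. The 2 rRNAs and 22 tRNAs serve the mitochondrial ribosome that translates these 13 mRNAs, and every other part of that machinery is encoded in the nucleus.

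The way these genes abut decides which reads can be told apart, and the sequences here, from GENCODE release 29 on build GRCh38, show it. The first set holds the last 15 bases of 6 mRNAs, written 5′ to 3′ on the plus strand with the encoded letters of the stop codon in capitals. In 6 of the 13 mRNAs the encoded stop is only T (5 mRNAs) or TA (1 mRNA) and the tail completes it. The other 7 encode a full final codon, which is AGA in MT-CO1, AGG in MT-ND6 and TAA or TAG in the rest.
MT-ND1 (gene at MT:3307-4262): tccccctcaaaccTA
MT-ND4 (gene at MT:10760-12137): ccgggttttcctctT
MT-CO3 (gene at MT:9207-9990): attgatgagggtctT
MT-CYB (gene at MT:14747-15887): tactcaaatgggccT
MT-CO2 (gene at MT:7586-8269): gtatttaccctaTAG
MT-ATP6 (gene at MT:8527-9207): cacgacaacacaTAA
The second set holds the last 60 bases of MT-ATP8 and of MT-ND4L, each on the plus strand with the bases shared with the next gene in capitals. MT-ATP8 and MT-ATP6 share 46 bases, and MT-ND4L and MT-ND4 share 7, so a fragment from either pair can cover both genes.
MT-ATP8 into MT-ATP6 (MT:8513-8572): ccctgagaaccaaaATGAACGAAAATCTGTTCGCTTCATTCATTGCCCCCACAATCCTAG
MT-ND4L into MT-ND4 (MT:10707-10766): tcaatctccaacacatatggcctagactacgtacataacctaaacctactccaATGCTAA

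Of the 22 tRNAs, 14 are encoded on the plus strand and 8 on the minus strand, and they are 59 to 75 bases long. That is shorter than the 150-base reads and the 300-base average insert that the labels give, so a fragment counted to a tRNA usually also covers a neighbour. The tRNA values below are values of such fragments and not of the single tRNAs alone. The 5 tRNAs that passed the test in THP-1 are shown whole, 5′ to 3′ on their own strand, with the anticodon in capitals where a search of the loop found it at 1 place.
MT-TW, tRNA for tryptophan (MT:5512-5579, plus strand): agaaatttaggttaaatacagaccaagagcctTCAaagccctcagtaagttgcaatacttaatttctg
MT-TD, tRNA for aspartate (MT:7518-7585, plus strand): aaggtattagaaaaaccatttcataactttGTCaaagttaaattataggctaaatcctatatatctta
MT-TP, tRNA for proline (MT:15956-16023, minus strand): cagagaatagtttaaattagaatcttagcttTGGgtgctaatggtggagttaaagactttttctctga
MT-TF, tRNA for phenylalanine (MT:577-647, plus strand): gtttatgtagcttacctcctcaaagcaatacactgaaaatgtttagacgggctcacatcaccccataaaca
MT-TT, tRNA for threonine (MT:15888-15953, plus strand): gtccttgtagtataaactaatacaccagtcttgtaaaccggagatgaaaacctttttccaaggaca
For 4 of these tRNAs the next gene on the same strand begins or ends with no base between, as the junctions show with the tRNA in capitals and 20 bases from each gene.
MT-TF into MT-RNR1 (MT:628-667): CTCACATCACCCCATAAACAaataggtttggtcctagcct
MT-ND2 into MT-TW (MT:5492-5531): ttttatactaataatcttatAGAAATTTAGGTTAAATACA
MT-TD into MT-CO2 (MT:7566-7605): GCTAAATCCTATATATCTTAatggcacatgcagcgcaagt
MT-CYB into MT-TT (MT:15868-15907): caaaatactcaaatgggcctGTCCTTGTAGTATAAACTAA

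The libraries held 71730093 to 77782719 counts each, and single mitochondrial genes received from 69 counts (MT-TW) to 1606378 counts (MT-CO1) in a library. CYTH4 stood at 25.7, 32.2 and 21.0 FPKM (fragments scaled by transcript length and by library depth) in the THP-1 shControl libraries and at 15.7, 15.0 and 15.7 FPKM in THP-1 shCYTH4. The log2 change of -0.89 ± 0.19 (SE) passed the test in THP-1 (adjusted p = 0.0338, edgeR quasi-likelihood test). In MV4-11 it stood at 20.9, 16 and 18.1 FPKM in shControl and at 15.5, 20.7 and 22.3 FPKM in the libraries labelled shCYTH4, a log2 change of 0.01 ± 0.19 (adjusted p = 0.988, edgeR). The target was thus lower in every THP-1 shCYTH4 library and overlapped between the MV4-11 groups, so MV4-11 libraries are called labelled shCYTH4 throughout. Of 22 cell type markers listed, 19 were found. The 8 myeloid markers summed to 1856 to 2077 FPKM in MV4-11 shControl, 1301 to 1361 in MV4-11 labelled shCYTH4, 545 to 616 in THP-1 shControl and 867 to 1015 in THP-1 shCYTH4. Most of each sum was LYZ, the lysozyme gene, with 1707 ± 129, 1119 ± 25.5, 331 ± 53.1 and 705 ± 49.6 FPKM (SD, n = 3) in the same order. Without LYZ the other 7 markers summed to 222 to 237, 204 to 218, 224 to 259 and 219 to 277 FPKM, and single markers went different ways: FCGR1A, an Fc receptor gene, had 67.7 ± 5.92 FPKM in THP-1 shControl and 45.0 ± 6.83 in THP-1 shCYTH4. The 2 T cell markers found reached at most 0.0373 FPKM, the 4 erythroid markers 0.42, the 3 epithelial and fibroblast markers 0.846 and the 2 B cell markers 1.72. The part of the LYZ and other marker differences in the mitochondrial values was not tested. The first replicate of MV4-11 labelled shCYTH4 stood apart: 9 of its 37 mitochondrial genes were more than 1.5-fold under the lower of its group mates, against 0 or 1 in every other library.

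The 13 mRNAs spanned more than an order of magnitude in FPKM, with MT-CO1 at the top and MT-ND5, MT-ND6 and MT-ND3 at the bottom in the controls of both lines. The 3 complex IV mRNAs were the highest in MV4-11 shControl, while MT-CO2 stood below MT-ATP8, MT-ND1 and MT-ATP6 in the order of THP-1 shControl. In MV4-11 shControl the mean FPKM ran from 11944 ± 1696 (SD, n = 3) for MT-CO1 through 9449.9 ± 998 for MT-CO3 and 8912 ± 539 for MT-CO2. MT-ATP8 (7018 ± 756), MT-ND1 (6828 ± 684) and MT-ATP6 (6326 ± 557) followed in FPKM. Below them stood MT-ND4L at 5201 ± 601, MT-ND4 at 4851 ± 742, MT-ND2 at 3994 ± 427 and MT-CYB at 3218 ± 265 FPKM. MT-ND5 at 1865 ± 368, MT-ND6 at 1220.4 ± 288 and MT-ND3 at 850.4 ± 132 FPKM closed the order. Of the 12 pairs of neighbours in this order, 8 overlapped between their libraries. The clear steps lay below MT-CO1, below MT-CO2, below MT-ND2 and below MT-CYB. In THP-1 shControl MT-CO1 again led with 9966 ± 1223 FPKM, and 7 of 12 neighbouring pairs overlapped. There MT-CO3, MT-ATP8, MT-ND1, MT-ATP6 and MT-CO2 formed a run of overlapping neighbours between 7711 ± 806 and 6785 ± 424 FPKM, with no clear step among them.

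**Figure D1:**
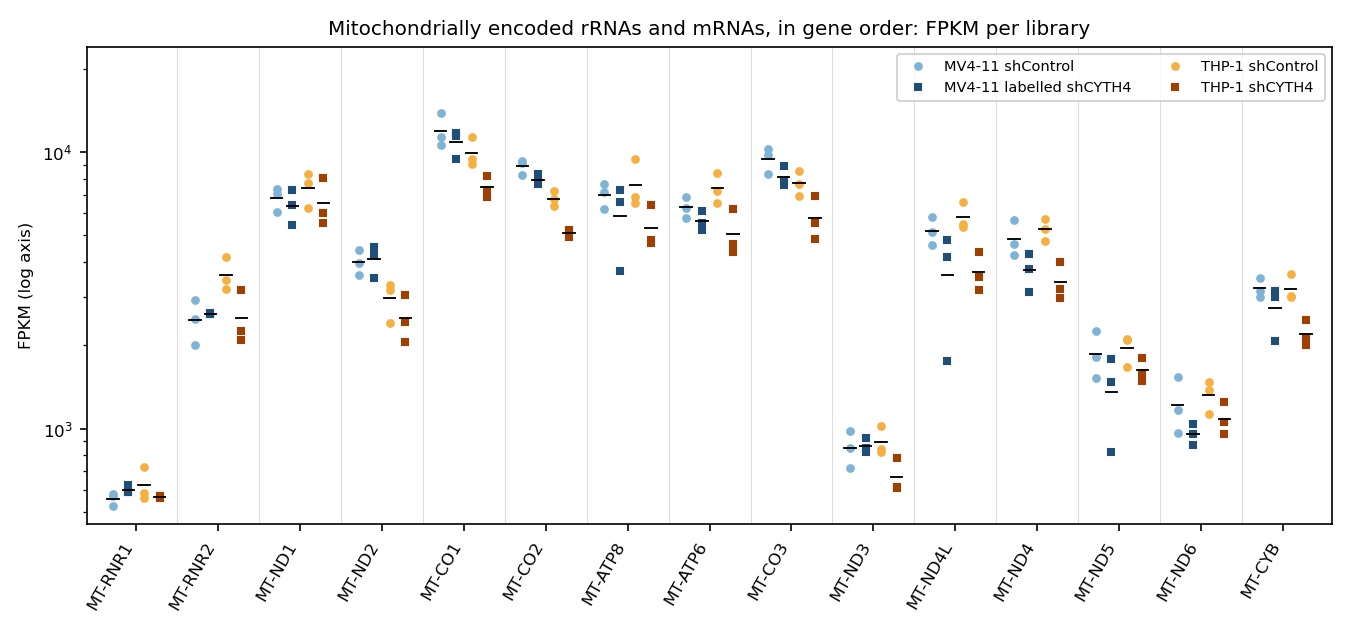
Level of the 2 rRNAs and 13 mRNAs in each of the 12 libraries, in gene order, as FPKM on a log axis; points are libraries, bars are group means. MT-CO1 is the highest and MT-RNR1 the lowest in each control group.

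The rRNAs were far below the most abundant mRNAs in these poly(A)-selected libraries. MT-RNR1, the small-subunit rRNA (MT:648-1601), had 523, 581 and 570.2 FPKM in MV4-11 shControl and 559, 729 and 586 FPKM in THP-1 shControl. MT-RNR2, the large-subunit rRNA (MT:1671-3229), had 2005, 2915 and 2488 FPKM in MV4-11 shControl and 3197, 4178 and 3435 FPKM in THP-1 shControl. MT-RNR1 overlapped between the lines, whereas each THP-1 shControl library was above each MV4-11 shControl library for MT-RNR2.

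The tRNAs ranged from 13 FPKM for MT-TW in one library to 7548 FPKM for MT-TY in another, and the highest were neighbours. The 4 neighbouring minus-strand tRNAs MT-TA, MT-TN, MT-TC and MT-TY, for alanine, asparagine, cysteine and tyrosine, held 2253 to 4313 FPKM over the MV4-11 shControl libraries and 3147 to 7548 FPKM over the THP-1 shControl libraries. MT-TW, which lies next to them on the plus strand, held 18.5 to 25.0 FPKM in MV4-11 shControl and 99.1 to 131 FPKM in THP-1 shControl. The plus-strand tRNA for leucine, MT-TL1, and the minus-strand tRNA for serine, MT-TS1, followed with at most 2323 and 1299 FPKM, and no other tRNA passed 709 FPKM. The 3 tRNAs from MT-TI to MT-TM stayed between 28.5 and 91.1 FPKM in all groups, and the 3 from MT-TH to MT-TL2 between 51.5 and 154 FPKM. MT-TG, for glycine, and MT-TR, for arginine, lay between 50.8 and 118 FPKM. The library kit marked the strand, but no source says that the counting read it, so reads of genes that adjoin on opposite strands cannot be told apart with certainty.

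**Figure D2:**
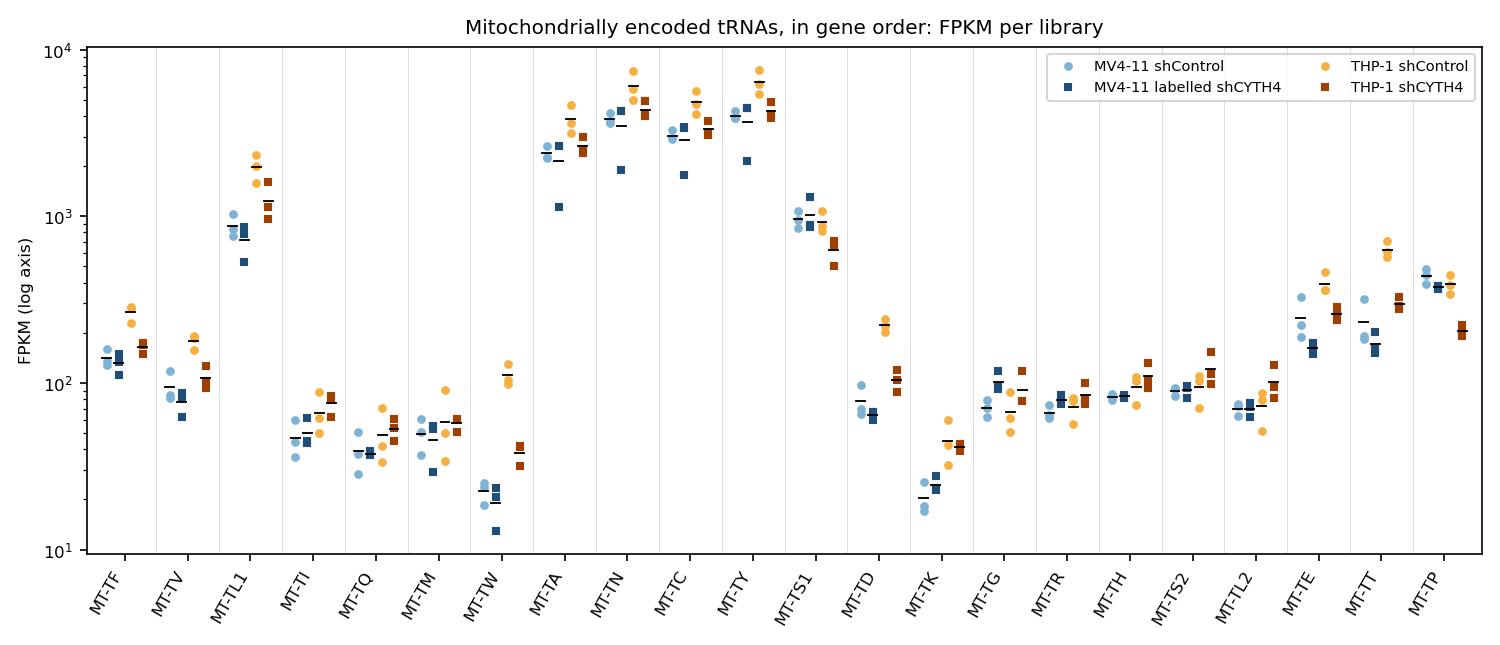
Level of the 22 tRNAs in each of the 12 libraries, in gene order, as FPKM on a log axis; points are libraries, bars are group means. MT-TA, MT-TN, MT-TC and MT-TY hold between 1139 and 7548 FPKM, and MT-TW and MT-TK are among the lowest in MV4-11.

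Mitochondrial mRNAs, rRNAs and tRNAs each took a lower share of counts in all 3 THP-1 shCYTH4 libraries than in any THP-1 control, with totals formed with or without them. The 13 mRNAs made up 5.67%, 6.97% and 6.15% of all counts in THP-1 shControl and 4.17%, 4.44% and 5.40% in THP-1 shCYTH4. All 3 shCYTH4 libraries were under all 3 controls, and the means were 6.26% ± 0.659 and 4.67% ± 0.647 (SD, n = 3). The difference of -1.59 percentage points had an exact two-sided permutation p of 0.1, the smallest that 3 against 3 libraries can give, and 0.2 after adjustment over the 12 share comparisons. With the mitochondrial genes taken out of the total, the mRNAs came to 6.75 ± 0.768 counts per 100 counts from all other genes in THP-1 shControl and 4.93 ± 0.726 in THP-1 shCYTH4 (exact permutation p = 0.1). The 2 rRNAs went from 0.648% ± 0.0894 to 0.461% ± 0.0957 of all counts, and the 22 tRNAs from 0.193% ± 0.0286 to 0.132% ± 0.0157 (exact permutation p = 0.1 for each, n = 3). As a share of the summed FPKM of all genes, the mRNAs went from 21.0% to 16.8% without overlap, and the rRNAs from 1.30% to 1.02% with overlapping groups (exact permutation p = 0.1 and 0.2, n = 3). The 3 classes together held 7.11% of counts in THP-1 shControl and 5.26% in THP-1 shCYTH4.

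In MV4-11 the shares overlapped between the groups. The mRNAs held 6.74%, 7.42% and 6.01% of all counts in shControl and 5.17%, 6.04% and 6.50% in the libraries labelled shCYTH4. The highest labelled shCYTH4 library was above the lowest control, and the difference of -0.821 percentage points had an exact permutation p of 0.3 (n = 3). Outside the mitochondrial total the mRNAs came to 7.25 ± 0.82 and 6.31 ± 0.767 counts per 100 other counts (SD; exact permutation p = 0.3, n = 3). The rRNAs held 0.377%, 0.529% and 0.462% against 0.485%, 0.484% and 0.481% of all counts, and the labelled shCYTH4 libraries lay inside the control range. The tRNAs held 0.129%, 0.121% and 0.114% in shControl and 0.0741%, 0.129% and 0.131% in the libraries labelled shCYTH4, where the low value is that of the first replicate.

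**Figure D3:**
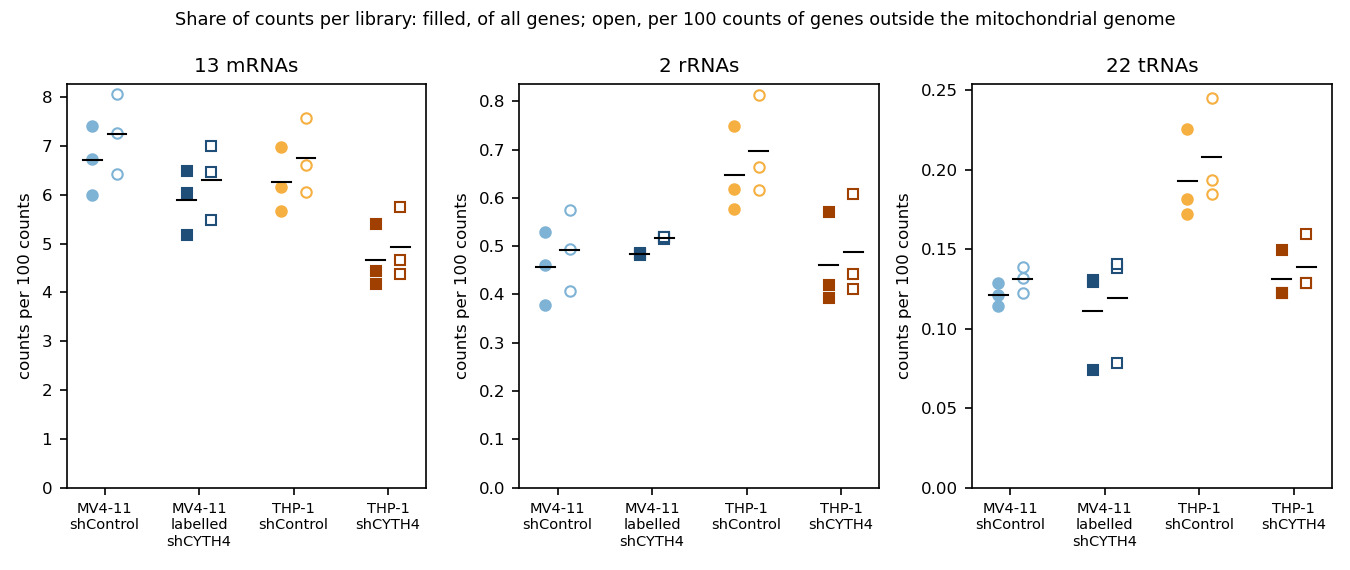
Share of counts from the mRNAs, rRNAs and tRNAs of the mitochondrial genome per library, in percent of all counts (filled) and per 100 counts from all other genes (open), with group means as bars. In each of the 3 classes the THP-1 shCYTH4 libraries lie below the THP-1 shControl libraries, and the MV4-11 groups overlap.

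In THP-1, 8 of the 37 genes fell with the CYTH4 hairpin and 0 rose: 3 mRNAs, MT-ND4, MT-ATP6 and MT-CO2, and 5 tRNAs, MT-TW, MT-TD, MT-TT, MT-TP and MT-TF. The 8 stand against 1.04% of all 12350 tested genes that were lower, 0.607% that were higher and 1.65% in either direction at an adjusted p under 0.05 by edgeR. All 13 mRNAs had a change below 0, with a median of -0.54 on the log2 scale beside -0.01 over all tested genes. The FPKM of the shCYTH4 libraries lay wholly under the controls for 9 of the 13 mRNAs and for 22 of the 37 genes, against 6.63% of all tested genes, and wholly above them for 0, against 17.1%. The 100 most abundant nuclear genes also lay mostly below 0 here, 88 of 100, with a median of -0.22 and 2 called lower. Their summed counts went from 21.3 to 19.8 per 100 counts outside the mitochondrial genes (exact permutation p = 0.1, n = 3). The part of this in the mitochondrial changes was not tested.

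For complex I, MT-ND4 had 4756, 5749 and 5289 FPKM in THP-1 shControl and 2973, 3192 and 4017 FPKM in THP-1 shCYTH4. Every shCYTH4 library was below every control, and the log2 change was -0.75 ± 0.16 (SE), to 59.3% of the control level (adjusted p = 0.0345, edgeR). MT-ND4L, which shares its end with MT-ND4, had 5378, 6613 and 5511 FPKM against 3537, 3180.4 and 4338 FPKM. Its groups did not overlap either, but its log2 change of -0.78 ± 0.29 missed the threshold (adjusted p = 0.208, edgeR). MT-ND3 went from 894 ± 108 to 668 ± 97.1 FPKM without overlap (log2 change -0.54 ± 0.16, adjusted p = 0.0978, edgeR). The other 4 complex I mRNAs overlapped between the groups and were not called. Their log2 changes were -0.30 for MT-ND1, -0.36 for MT-ND2, -0.39 for MT-ND5 and -0.40 for MT-ND6, the only mRNA of the minus strand.

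MT-CYB, the complex III subunit, had 3009, 3626 and 2984 FPKM in THP-1 shControl and 2003, 2133 and 2476 FPKM in THP-1 shCYTH4. The groups were apart, and its adjusted p of 0.0579 (edgeR) was just outside the threshold at a log2 change of -0.66 ± 0.17. For complex IV, MT-CO2 had 6382, 7227 and 6745 FPKM in THP-1 shControl and 4934, 5175 and 5227 FPKM in THP-1 shCYTH4. It fell by 0.52 ± 0.12 on the log2 scale, to 69.5% of control (adjusted p = 0.0375, edgeR). MT-CO1 went from 9966 ± 1223 to 7472 ± 673 FPKM and MT-CO3 from 7711 ± 806 to 5770.1 ± 1054 FPKM, each without overlap. Their log2 changes of -0.53 ± 0.14 and -0.54 ± 0.15 were not called (adjusted p = 0.0748 and 0.0792, edgeR). For ATP synthase, MT-ATP6 had 6532, 8438 and 7245 FPKM in THP-1 shControl and 4335, 4658 and 6216 FPKM in THP-1 shCYTH4. It fell by 0.67 ± 0.15 on the log2 scale, to 62.9% of control (adjusted p = 0.0434, edgeR). MT-ATP8, which overlaps it, had 6559.7, 9422 and 6855 FPKM against 4672, 4793 and 6446 FPKM and was not called (log2 change -0.65 ± 0.24, adjusted p = 0.197, edgeR).

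The rRNAs were not called in THP-1. MT-RNR2 went from 3197, 4178 and 3435 FPKM to 2084, 2254 and 3169 FPKM, without overlap but with the third shCYTH4 library close to the lowest control. Its log2 change was -0.65 ± 0.17 (adjusted p = 0.0623, edgeR). MT-RNR1 went from 559, 729 and 586 FPKM to 562, 568 and 573 FPKM, with overlapping groups and a log2 change of -0.26 ± 0.13 (adjusted p = 0.361, edgeR). The 3 shCYTH4 libraries lay close together for MT-RNR1, while for MT-RNR2 one was well above the other two.

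The tRNA genes held the largest decreases, in fragments that usually also cover a neighbour, so these are not levels of the single tRNAs alone. MT-TW had 104, 131 and 99.1 FPKM in THP-1 shControl and 41.6, 41 and 31.8 FPKM in THP-1 shCYTH4, a log2 change of -1.66 ± 0.27, to 31.7% of control (adjusted p = 0.0119, edgeR). MT-TD had 203, 241 and 221 FPKM against 87.9, 119.9 and 103 FPKM, a log2 change of -1.21 ± 0.20 (adjusted p = 0.0126, edgeR). MT-TT had 568, 709 and 611 FPKM against 288, 326 and 279.6 FPKM, a log2 change of -1.20 ± 0.21 (adjusted p = 0.013, edgeR). In each of these 3 plus-strand tRNAs the highest shCYTH4 library was well below the lowest control. MT-TP, on the minus strand beside MT-TT, had 343, 441 and 384 FPKM against 199, 221 and 192 FPKM, a log2 change of -1.05 ± 0.16 (adjusted p = 0.00605, edgeR). MT-TF, the first gene of the plus-strand run, had 228, 286 and 282 FPKM against 150.0, 174 and 168 FPKM, a log2 change of -0.81 ± 0.18 (adjusted p = 0.0399, edgeR). These 2 pairs of groups were also apart. Of the 14 tRNAs that adjoin a gene of the same strand with no base between, 4 were called lower. Of the other 8, 1 was, against 1.04% of all tested genes. These sets of tRNAs were not tested against each other.

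Beyond the called tRNAs, MT-TV for valine went from 178 ± 19 to 107 ± 16.9 FPKM (log2 change -0.85, adjusted p = 0.0633, edgeR). MT-TL1 had 1579.9, 2001 and 2323 FPKM against 959.7, 1130.0 and 1613 FPKM, with the third shCYTH4 library above the first control (log2 change -0.79, adjusted p = 0.0865, edgeR). MT-TE for glutamate went from 395 ± 57.8 to 261 ± 23 FPKM and MT-TS1 from 922 ± 137 to 628 ± 109 FPKM, each without overlap (log2 changes -0.71 ± 0.20 and -0.68 ± 0.19, adjusted p = 0.0864 and 0.0856, edgeR). The 4 abundant minus-strand tRNAs from MT-TA to MT-TY had log2 changes between -0.70 and -0.61, all without overlap, and adjusted p from 0.144 to 0.282 (edgeR). A change above 0 was seen for 7 tRNAs, none called: MT-TI, MT-TQ, MT-TG, MT-TR, MT-TH, MT-TS2 and MT-TL2. The highest were 0.35 for MT-TL2 and 0.33 for MT-TG. MT-TG had 50.8, 61.5 and 88.2 FPKM in THP-1 shControl and 77.6, 78.3 and 118 FPKM in THP-1 shCYTH4, with overlapping groups.

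The number of THP-1 genes called depended on single libraries, and the cause was not tested. It was 0 without the first THP-1 shCYTH4 library, 1 without the second THP-1 shControl library, and 4 without the third THP-1 shControl, the second THP-1 shCYTH4 or the second MV4-11 labelled shCYTH4 library. It was 5 without the second MV4-11 shControl or the third MV4-11 labelled shCYTH4 library, and 15 without the first MV4-11 labelled shCYTH4 or the third THP-1 shCYTH4 library. The MV4-11 libraries enter through the spread that the groups share. How many of all genes were called with each library left out is not given here. Over 28 alternative settings MT-TP was called in 27, MT-TW in 26, MT-TD and MT-TT in 25 each, MT-ND4 in 18, MT-TF and MT-CO2 in 14 each and MT-ATP6 in 10. With the mitochondrial genes left out of totals and composition factors, all 8 were again called, with log2 changes from -1.65 for MT-TW to -0.52 for MT-CO2. With only the totals formed without them and no composition factor, MT-ND4, MT-ATP6 and MT-TF missed the threshold at log2 changes of -0.67, -0.58 and -0.73 (adjusted p = 0.0572, 0.069 and 0.063, edgeR). None of the 13 mRNAs had a change above 0 in THP-1 under any of the 28 settings, and under quantile normalization, which fixes the value of the top gene, MT-CO1 stood at 0.

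In MV4-11, 0 of the 37 genes were called by edgeR, against 0.599% of all tested genes that were lower, 0.526% that were higher and 1.13% in either direction. Of the 37, 5 had an unadjusted p under 0.05 by edgeR, a share near that of all tested genes (1713 of 12350). DESeq2 called 1, MT-TE, and limma on log2(FPKM + 1) called 0. The share of all genes called by DESeq2 or limma is not given here. All 13 mRNAs again lay below 0, their median on the log2 scale being -0.30 beside 0.00 over all tested genes. Without the first labelled shCYTH4 library that median was -0.18. The groups were wholly apart in FPKM for 2 genes lower (MT-TE and MT-TP) and 3 higher (MT-RNR1, MT-TG and MT-TR), against 8.84% and 16% of all tested genes.

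MT-ND4 had 4643, 5674 and 4235 FPKM in MV4-11 shControl and 3126, 3780.2 and 4293 FPKM in the libraries labelled shCYTH4. The third labelled shCYTH4 library overlapped the controls (log2 change -0.45 ± 0.16, adjusted p = 0.212, edgeR). MT-ND4L had 5142, 5829.9 and 4632 FPKM against 1760.1, 4190.0 and 4827 FPKM, and MT-ND5 had 1811, 2257 and 1527 FPKM against 821, 1476 and 1784 FPKM. In both the first labelled shCYTH4 library was far below its mates, and the log2 changes were -0.61 ± 0.29 and -0.53 ± 0.24 (adjusted p = 0.376 and 0.343, edgeR). MT-ATP8 showed the same library apart, with 3731, 6587 and 7316 FPKM in the libraries labelled shCYTH4 against 7018 ± 756 FPKM in shControl (log2 change -0.33).

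None of the remaining mRNAs of MV4-11 was called either. MT-CO1 went from 11944 ± 1696 to 10881 ± 1240.0 FPKM, MT-CO2 from 8912 ± 539 to 7950.5 ± 368, MT-CO3 from 9449.9 ± 998 to 8125 ± 687 and MT-ATP6 from 6326 ± 557 to 5634 ± 459.7 FPKM. Their log2 changes of -0.21, -0.24, -0.30 and -0.24 were not called. MT-CYB (-0.31), MT-ND6 (-0.43 ± 0.17, adjusted p = 0.278, edgeR), MT-ND1 (-0.18), MT-ND3 (-0.06) and MT-ND2 (-0.04) gave the other log2 changes. The signs of the smallest of these depended on the scaling: 17 of the 364 mRNA values over 13 genes and 28 settings were above 0, mostly for MT-ND2 and MT-ND3.

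The rRNAs of MV4-11 had changes close to 0. MT-RNR1 had 523, 581 and 570.2 FPKM in shControl and 590.5, 626 and 589 FPKM in the libraries labelled shCYTH4, apart in FPKM but with a log2 change of 0.03 ± 0.13 in the scaled counts (adjusted p = 0.931, edgeR). MT-RNR2 had 2005, 2915 and 2488 FPKM against 2621, 2596 and 2603 FPKM, inside the control range (log2 change 0.01 ± 0.17).

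Among the MV4-11 tRNAs, MT-TE had 224, 326 and 189.5 FPKM in shControl and 161, 149.7 and 174 FPKM in the libraries labelled shCYTH4. The groups did not overlap, and the log2 change was -0.68 ± 0.20 (adjusted p = 0.119, edgeR). MT-TT, with 191, 318 and 184 FPKM against 202, 152 and 160.3 FPKM, overlapped (log2 change -0.51 ± 0.21, adjusted p = 0.284, edgeR). MT-TG went the other way, with 79.0, 62.5 and 70.8 FPKM against 117, 92.1 and 94.0 FPKM, apart but not called (log2 change 0.43 ± 0.25, adjusted p = 0.457, edgeR). MT-TA, MT-TN, MT-TC and MT-TY held 1139, 1898, 1769 and 2135 FPKM in the first labelled shCYTH4 library and 2638 to 4493 FPKM in the other two. Their controls held 2253 to 4313 FPKM, so that library alone was below them. Over the 22 tRNAs the log2 changes had their median at -0.19 for MV4-11, where 17 were below 0, and at -0.65 for THP-1, where 15 were.

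**Figure D4:**
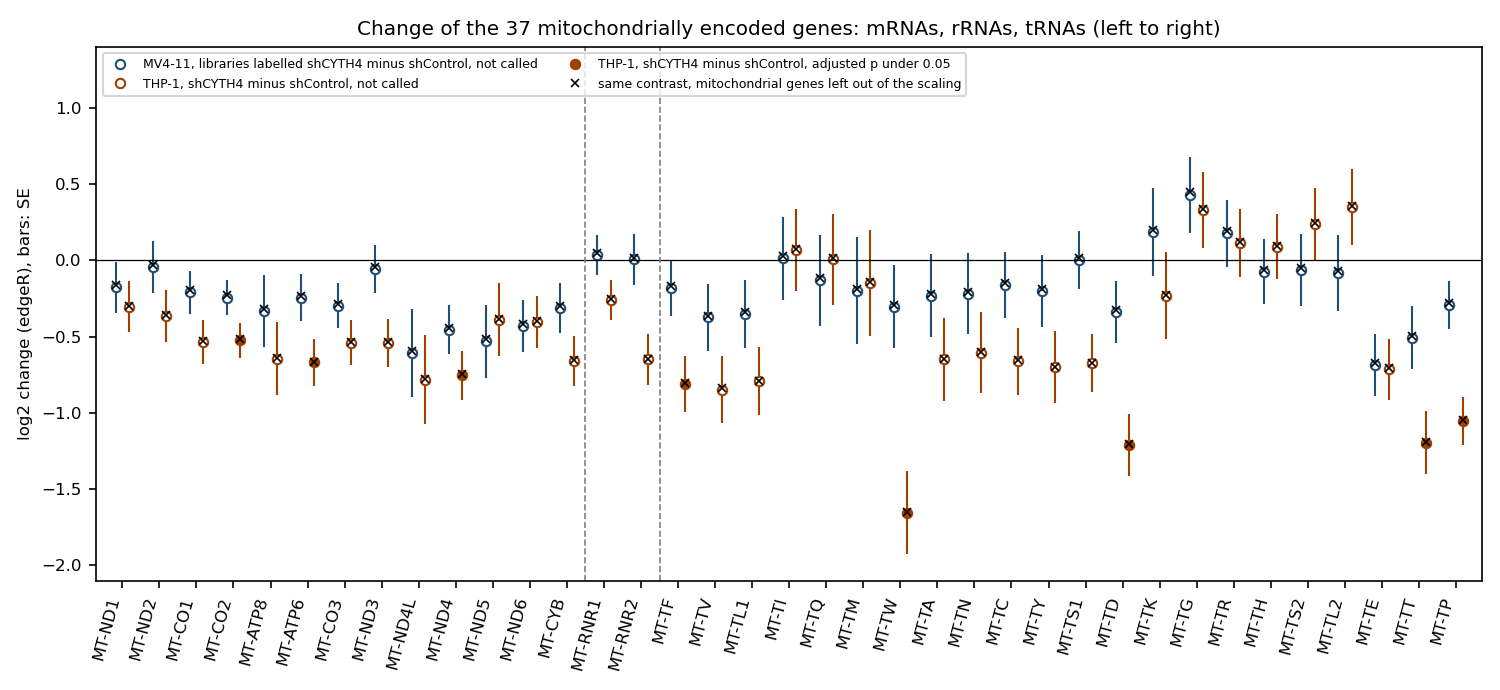
Change of each of the 37 genes on the log2 scale, shCYTH4 against shControl, in MV4-11 and THP-1, with bars of 1 SE from edgeR; filled points were called and crosses give the values with the mitochondrial genes out of the scaling. The filled points are the 8 called in THP-1, from -1.66 for MT-TW to -0.52 for MT-CO2, and no MV4-11 point is filled.

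The responses of the lines were compared directly, and the difference was called for 0 of 37 genes by edgeR, against 0.453% of all tested genes with a lower and 0.413% with a higher response in MV4-11 (0.866% in all). Of the 37, 8 had an unadjusted p under 0.05 by edgeR, against 1752 of all 12350 tested genes. DESeq2 called 2, MT-TW and MT-TP, and limma on log2(FPKM + 1) called 1, MT-TW. For these DESeq2 and limma calls the share of all genes is not given here. The median difference, MV4-11 response minus THP-1 response, was 0.30 on the log2 scale for the mRNAs, with 11 of 13 above 0, and 0.42 for the tRNAs, beside 0.02 over all tested genes. MT-TW, at 1.35 ± 0.38, was the largest (adjusted p = 0.116, edgeR), and MT-TP followed in p at 0.76 ± 0.22 (adjusted p = 0.126). MT-TD gave 0.87 ± 0.29, MT-TS1 0.68 and MT-RNR2 0.65 ± 0.23 (adjusted p = 0.176, 0.259 and 0.211, edgeR). Without the third THP-1 shCYTH4 library the count was 1, MT-RNR2, at 0.85 (adjusted p = 0.0255, edgeR). The decrease called in THP-1 for 8 genes was therefore not shown to differ between the lines.

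Between the shControl libraries of the lines, 10 of 22 tRNAs and MT-RNR2 were lower in MV4-11 than in THP-1, and 2 of 13 mRNAs were higher. These 11 lower and 2 higher genes of 37 stand against 26.7% and 24.6% of all tested genes, 51.4% in all, so the share called was below that of genes at large. In FPKM 13 of 37 were wholly lower and 2 wholly higher, against 31.2% and 29.4% of all tested genes. The mRNAs had a median log2 difference of -0.05, the tRNAs of -0.64, with 19 of 22 below 0, beside -0.01 over all tested genes. The THP-1 control libraries enter this comparison and the THP-1 response alike, and the MV4-11 controls enter it and the MV4-11 response, so the comparisons are not independent.

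MT-TW was the furthest apart between the lines, at 18.5, 25.0 and 23.8 FPKM in MV4-11 shControl against 104, 131 and 99.1 FPKM in THP-1 shControl. The log2 difference was -2.30 ± 0.28, or 20.3% of the THP-1 level (adjusted p = 4.76e-06, edgeR). MT-TD, at 65.5, 97.7 and 69.5 FPKM against 203, 241 and 221 FPKM, differed by -1.5 ± 0.21 (adjusted p = 1.75e-05, edgeR). Every MV4-11 library was far below every THP-1 library for both tRNAs. MT-TT, at 231 ± 75.5 against 629 ± 72 FPKM, differed by -1.43 ± 0.21 (adjusted p = 3.02e-05, edgeR). MT-TL1, at 879 ± 144 against 1968 ± 372 FPKM, differed by -1.15 ± 0.22 (adjusted p = 0.000548, edgeR). MT-TK, for lysine, differed by -1.11 ± 0.29, MT-TV by -0.89 and MT-TF by -0.89 ± 0.18 (adjusted p = 0.00472, 0.00283 and 0.000688, edgeR). All 5 of these sets of libraries were apart.

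MT-TE (-0.66 ± 0.20), MT-TY (-0.65) and MT-TC (-0.65) were called with smaller log2 differences (adjusted p = 0.0119, 0.0316 and 0.0228, edgeR). Their neighbours MT-TA (-0.66) and MT-TN (-0.64) were just outside the threshold (adjusted p = 0.06 and 0.0586, edgeR). MT-RNR2 was lower in MV4-11 by 0.54 ± 0.17 in log2 units (log2 difference -0.54, adjusted p = 0.0134, edgeR). The calls for MT-TE, MT-TY, MT-TC and MT-RNR2 were each lost when single control libraries were left out. For MT-TE these were MV4-11 replicate 3 or THP-1 replicate 2, and for MT-RNR2 MV4-11 replicate 1 or THP-1 replicate 2. For MT-TC they were MV4-11 replicates 2 or 3 or THP-1 replicate 2, and for MT-TY the same and THP-1 replicate 1.

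The 2 genes higher in MV4-11 were MT-CO2 and MT-ND2. MT-CO2 had 9275, 9169 and 8292 FPKM in MV4-11 shControl and 6382, 7227 and 6745 FPKM in THP-1 shControl, a log2 difference of 0.41 ± 0.12 (adjusted p = 0.00703, edgeR). MT-ND2 had 3962, 4437 and 3584 FPKM against 2410.0, 3309 and 3183 FPKM, a log2 difference of 0.44 ± 0.17 (adjusted p = 0.0393, edgeR). Both were higher in each MV4-11 library, but the MT-ND2 call was lost without MV4-11 control replicate 1 or 2 or THP-1 control replicate 1 or 3. MT-CO3 at 0.31 and MT-CO1 at 0.28 were not called (adjusted p = 0.089 and 0.119, edgeR).

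Reads of MT-ND2 can be shared with a nuclear copy, and the MT-ND2 difference between the lines depended on whether the copy's counts were added. Of 73 nuclear copies of mitochondrial genes in the table, 7 had a mean FPKM of at least 1, and all 7 lie in one block on chromosome 1 between positions 629062 and 634922. Their mean levels were 867 FPKM for MTND2P28, 769 for MTATP6P1, 175 for MTCO1P12, 5.09 for MTND1P23, 4.89 for MTCO3P12, 2.11 for MTCO2P12 and 1.51 for MTATP8P1. The highest of the other copies had 0.569 FPKM. MTND2P28 differs from MT-ND2 at 17 of 1042 aligned bases, with 266 bases as the longest identical run. A 150-base read inside such a run matches both, but the average insert of 300 bases is longer than the run. The origin of the reads was not tested.

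MTND2P28 had 436, 424 and 414 FPKM in MV4-11 shControl and 1227, 1607 and 1525 FPKM in THP-1 shControl, a log2 difference of -1.76 ± 0.23 (adjusted p = 1.43e-05, edgeR). It took 9.68% ± 0.843 of the counts of the pair in MV4-11 shControl and 33.0% ± 0.701 in THP-1 shControl (SD, n = 3). With the hairpin these shares were 8.73% ± 1.87 in MV4-11 labelled shCYTH4 and 32.3% ± 0.782 in THP-1 shCYTH4, and the groups within each line overlapped. MTATP6P1 took 10.7% to 12.1% of its pair with MT-ATP6 in all 12 libraries, and MTCO1P12 took 1.57% to 1.88% of its pair with MT-CO1. When the copies' counts were added to their mitochondrial genes, the MT-ND2 difference between the lines went from 0.44 to 0.02 ± 0.17 (adjusted p = 0.948, edgeR). Under the same sum MT-ATP6 remained called in THP-1 at -0.67 ± 0.15 (adjusted p = 0.0432, edgeR). MTATP6P1 itself was called lower in THP-1 at -0.65 ± 0.15 (adjusted p = 0.0439, edgeR).

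Ratios between neighbouring genes need no library total. The MT-ATP8 to MT-ATP6 ratio of FPKM was 0.712 in the first MV4-11 labelled shCYTH4 library and 0.946 to 1.22 in the other 11 libraries. The MT-ND4L to MT-ND4 ratio was 0.563 in that library and 0.997 to 1.19 in the others. The MT-ND6 to MT-ND5 ratio was 1.16 in it and 0.582 to 0.708 in the others. That library thus departed in the proportions of neighbouring genes and not only in their sum. The MT-RNR2 to MT-RNR1 ratio was 5.72, 5.73 and 5.86 in THP-1 shControl and 3.71, 3.97 and 5.53 in THP-1 shCYTH4, where the third was close to the controls (exact permutation p = 0.1, 0.3 after adjustment over 27 ratio tests). In MV4-11 it averaged 4.40 ± 0.591 in shControl and 4.33 ± 0.164 in the libraries labelled shCYTH4. The MT-TN to MT-TW ratio, between tRNAs of opposite strands, averaged 54.3 ± 3.48 in THP-1 shControl, 117 ± 32.5 in THP-1 shCYTH4 and 176 ± 44 in MV4-11 shControl. THP-1 shControl was apart from each of the other two (exact permutation p = 0.1, 0.3 after the same adjustment, n = 3). The tRNAs gave 1.82 ± 0.155 counts per 100 mRNA counts in MV4-11 shControl and 3.08 ± 0.244 in THP-1 shControl, again apart (exact permutation p = 0.1, 0.3 after adjustment, n = 3).

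**Figure D5:**
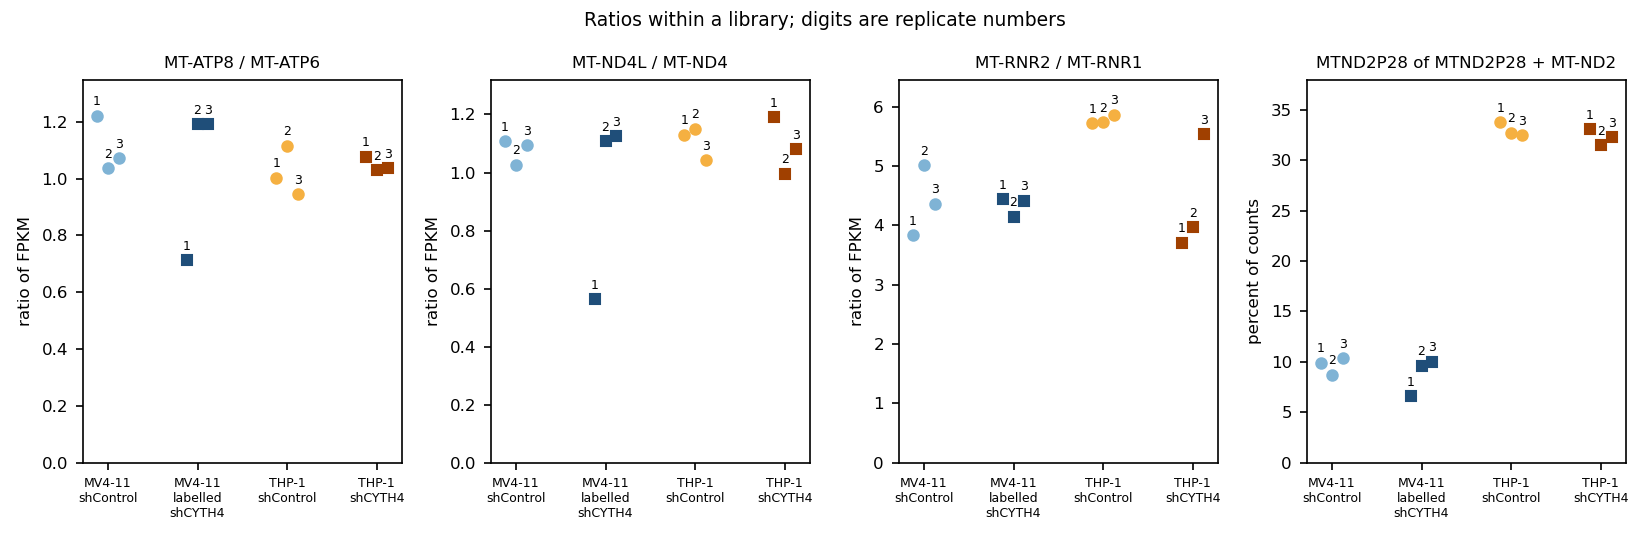
Ratios that need no library total, per library with the replicate number printed at each point: MT-ATP8 to MT-ATP6, MT-ND4L to MT-ND4 and MT-RNR2 to MT-RNR1 in FPKM, and the percent of counts that MTND2P28 takes of its pair with MT-ND2. The first MV4-11 labelled shCYTH4 library is the lowest in the first pair of ratios, and MTND2P28 takes about 33.0% in THP-1 shControl and 9.68% in MV4-11 shControl.

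Within the summed FPKM of the 13 mRNAs, the share of single genes moved by small amounts. In THP-1, MT-ND1 went from 10.9% to 12.9%, MT-ATP6 from 10.82% to 9.999%, MT-ND4L from 8.54% to 7.31% and MT-ND4 from 7.71% to 6.72%. In MV4-11, MT-ND1 went from 9.53% to 10.2%, MT-ND2 from 5.57% to 6.58%, MT-ND4L from 7.25% to 5.61% and MT-ND4 from 6.75% to 5.99%. These 4 genes in each line reached the smallest exact permutation p of 0.1 (n = 3), and the smallest adjusted p over the 39 composition tests was 0.244. The MT-ND4L share ran from 7.05% to 7.47% in MV4-11 shControl and from 3.28% to 6.98% in MV4-11 labelled shCYTH4. The first of these labelled libraries was far below its mates in MT-ND4L FPKM. Between the control groups 8 of 13 mRNAs reached an exact permutation p of 0.1. MT-CO1, MT-CO2, MT-CO3 and MT-ND2 took more of the sum in MV4-11, at 16.6%, 12.5%, 13.2% and 5.57%, than in THP-1, at 14.6%, 9.97%, 11.3% and 4.33%. MT-ND1, MT-ATP6, MT-ND4L and MT-ND4 took less, at 9.53%, 8.83%, 7.25% and 6.75% against 10.9%, 10.8%, 8.54% and 7.71%. The nuclear copy MTND2P28 is not part of this sum. It took 9.68% of the counts of its pair with MT-ND2 in MV4-11 shControl and 33.0% in THP-1 shControl. With the copies' counts added, the MT-ND2 log2 difference between the lines was 0.02 ± 0.17. The composition was not tested with the copies added.

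The nuclear genes that serve the mitochondrial genome did not pass the test in either response. Of 51 listed genes of mitochondrial DNA and RNA handling, 50 were found and 48 tested, and 0 were called in MV4-11, THP-1 or the difference by edgeR (4, 3 and 5 had an unadjusted p under 0.05). Over all tested genes the shares called were 1.13%, 1.65% and 0.866%, so 0 calls in lists of this size is near the share of genes at large. At an unadjusted p under 0.05 by edgeR stood 1713, 1982 and 1752 of all 12350 tested genes, in the same order. Their median log2 change was -0.09 in MV4-11 and 0.00 in THP-1. The 72 nuclear-encoded subunits of complexes I, III, IV and V had medians of -0.05 and -0.08 and 0 calls (1 and 7 at an unadjusted p under 0.05). The 78 mitochondrial ribosomal proteins had medians of -0.03 and 0.01 and 0 calls (1 and 4). Each of these unadjusted counts was a smaller share of its list than that over all tested genes. Between the shControl libraries of the lines, 21 handling genes, 37 respiratory subunits and 45 ribosomal proteins were higher in MV4-11 and 0, 4 and 4 lower, of 48, 72 and 78 tested and against 24.6% higher and 26.7% lower over all tested genes. The lists had median log2 differences of 0.44, 0.39 and 0.46 beside -0.01 for all tested genes.

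ELAC2, the enzyme that cuts mitochondrial precursors at the 3′ ends of tRNAs, had 27.8, 30.4 and 26.9 FPKM in MV4-11 shControl and 18.1, 20.7 and 22.2 FPKM in the libraries labelled shCYTH4 (log2 change -0.56 ± 0.16, adjusted p = 0.118, edgeR). It had 7.46, 8.93 and 8.57 FPKM in THP-1 shControl and 10.1, 9.85 and 6.90 FPKM in THP-1 shCYTH4. The MV4-11 groups were apart and the THP-1 groups overlapped, and MV4-11 shControl was above THP-1 shControl by a log2 difference of 1.78 ± 0.17 (adjusted p = 2.8e-07, edgeR). TWNK, the helicase that unwinds mitochondrial DNA, had 19.5, 18.4 and 17.2 FPKM in MV4-11 shControl and 12.7, 13.7 and 13.9 FPKM in the libraries labelled shCYTH4 (log2 change -0.53 ± 0.19, adjusted p = 0.221, edgeR). PRIMPOL, a primase-polymerase, had 1.95, 3.01 and 3.18 FPKM in MV4-11 shControl and 5.59, 3.65 and 3.27 FPKM in the libraries labelled shCYTH4. The groups were only just apart, the first labelled shCYTH4 library was the highest, and PRIMPOL was not called (log2 change 0.54, adjusted p = 0.306, edgeR). In THP-1 the smallest p belonged to TK2, the mitochondrial thymidine kinase, with a log2 change of 0.34 ± 0.13, MTERF3, a factor that binds mitochondrial DNA, with 0.52 ± 0.22, and PPARGC1B, a transcriptional coactivator, with 0.46 ± 0.21 (adjusted p = 0.196, 0.255 and 0.31, edgeR). All 3 were above 0 and none was called. Of the 48 handling genes tested in THP-1, 24 were above 0 and 24 below.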

How the data were processed

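Estimated counts and FPKM per gene were deposited by the authors in 1 table with 24 value columns, of which 0 lacked a sample. The submitters' processing notes name fastp, StringTie and edgeR, without versions or roles, and aligner, build and annotation remain not given in the sources used here. The positions of all 37 genes equal those of GENCODE release 29 (GRCh38), the source of the sequences. The deposited counts are whole numbers, but 31.2% of those from 1 to 40 are multiples of 4, so 1 count may not be 1 fragment. Poly(A) selection, a kit that marks strand by dUTP, and paired reads are given per the labels' protocols.

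A gene was tested where 3 or more libraries reached 1 FPKM, which kept 12350 of 34626 genes and all 37 of chromosome MT. The test was edgeR 4.0.16 (R 4.3.3): TMM scaling, 4 group means, robust quasi-likelihood with 8 residual degrees of freedom, and Benjamini-Hochberg adjustment over all tested genes. The threshold for a call was 0.05. Shares, ratios and composition were compared by exact two-sided permutation tests (SciPy 1.17.1) of 3 against 3 libraries, whose smallest p is 0.1. No binomial intervals are given because 1 count may not be 1 fragment. The alternatives were other scalings, totals without the mitochondrial genes, DESeq2 1.42.0, limma 3.58.1 on log2(FPKM + 1) and log2(FPKM + 0.1), other filters, a replicate block, and each library left out. Counts divided by 4, and nuclear copies added to their genes, were chosen after seeing the data. The script was tested on simulated counts. Named were all mRNAs, rRNAs and tRNAs of the mitochondrial genome, the 3 handling genes with the smallest p in each line, and nuclear copies with a mean FPKM of at least 1. The gene members and lists were chosen with earlier results of these data known.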

Additional observations from a re-analysis of the deposited data

Results flagged for a closer look

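In 3 genes, by FPKM, and in the share of counts from rRNA, every library labelled shCYTH4 lay on one side of its control mean in MV4-11 and every one on the opposite side in THP-1, and for none of the 3 genes was the difference called. MT-RNR2 responded 0.65 higher in MV4-11 than in THP-1 on the log2 scale (adjusted p = 0.211, edgeR): its MV4-11 libraries labelled shCYTH4 lay within the control range, and its THP-1 shCYTH4 libraries lay below theirs. MT-RNR1 responded 0.29 higher (adjusted p = 0.506, edgeR). MT-TK, the tRNA for lysine, responded 0.42 higher (adjusted p = 0.691, edgeR), at 20.3 ± 4.53 and 24.5 ± 2.57 FPKM in the MV4-11 groups and 44.9 ± 13.8 and 41.5 ± 2.16 FPKM in the THP-1 groups (SD, n = 3). The share of all counts from the 2 rRNAs responded 0.214 percentage points higher in MV4-11, and that difference was not tested.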

How the results depend on the processing

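The THP-1 count of 8 genes called was 5 with library totals alone, with totals without the mitochondrial genes and no composition factor, with limma on log2(FPKM + 0.1) and with no filter, and 17 with DESeq2. The cause was not tested. How many of all genes were called under each alternative is not given here, so these counts cannot be set against genes at large. The MV4-11 count of 0 became 1 with DESeq2. The difference between the lines' responses went from 0 to 1 under quantile normalization (MT-TW) and limma on log2(FPKM + 1), and to 2 with DESeq2. Quantile normalization moved the median of the 13 mRNAs to -0.12 in MV4-11 and -0.22 in THP-1. The mitochondrial share of summed FPKM was 2.50 percentage points lower in MV4-11 than in THP-1 controls (difference -2.50), where counts gave 0.193. With each library left out in turn, the THP-1 count ranged from 0 to 15, that of the line comparison from 10 to 15, and that of the difference from 0 to 1. Over the same libraries the mRNA medians ranged from -0.36 to -0.18 in MV4-11, -0.64 to -0.42 in THP-1, 0.18 to 0.43 for the difference and -0.18 to 0.09 between the lines. In MV4-11 the rRNA share difference ranged from -0.0119 to 0.0638 and that of tRNA from -0.0198 to 0.00849, and the share of all 37 genes between the lines from -0.191 to 0.614. None of the summary results became called in the opposite direction. Same-numbered libraries did not consistently deviate together (correlations -0.22, -0.13 and -0.12 in MV4-11 and -0.31, 0.19 and -0.09 in THP-1). Not every library correlated best with its own number in either line. These values gave no sign of pairing by number, but deviations among 3 libraries per group cannot exclude it. With a replicate block the THP-1 count was 5, and with the block within each line it was 2. Counts of 69 in the lowest libraries limit MT-TW.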
